A study of Sus scrofa with 20 samples.

Results

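The cholangiocyte secretion genes examined here are CFTR, SCTR, SLC4A2, SLC4A4, SLC9A3, ANO1, GPBAR1, CA2, GGT1 and AQP5, chosen by name. Of these 10 genes, 9 had a row among the 25764 genes measured, and GGT1, which encodes a gamma-glutamyl transferase, was not analysed here. Their RNA was read from poly(A) libraries of pig cells in 6 groups and 20 libraries. The first group is porcine biliary tree stem cells (pBTSCs, n = 5), labelled as gallbladder cells and prepared in the study from gallbladder, cystic duct and common duct. The other 5 groups are cells of pig liver sorted by surface antigens, namely CD45-/EpCAM+ (n = 4), CD45-/EpCAM- (n = 2), CD45+ (n = 5), CD31+ (n = 2) and CD146+ (n = 2). The pBTSCs came from 3 piglets of an H2B-GFP line, which carries a histone H2B and enhanced GFP fusion placed at the ACTB gene, and from 2 wild-type piglets. They are called G1, G2 and G3 (H2B-GFP) and W1 and W2 (wild-type), and their age was 1 day, or 2 days for G3. RNA integrity in the study's supplement was lowest in G2 and G3, higher in G1 and highest in W2, and was not given for W1. The labels give neither line, age nor donor for the liver libraries, so p-values measure the spread between libraries, which may share an animal. All libraries carry a storage number, from S2 to S23, by which the liver libraries are named. The pBTSC libraries G1, G2, G3, W1 and W2 are S2, S7, S11, S15 and S20, so that line and storage block cannot be told apart among them.

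Cholangiocytes are the epithelial cells that line bile ducts and gallbladder. They modify bile by secreting chloride, bicarbonate and water when secretin raises cyclic AMP. Chloride leaves the cell through CFTR or through calcium-activated channels such as ANO1, and is exchanged for bicarbonate by SLC4A2. The bicarbonate is imported by SLC4A4 or made from carbon dioxide by carbonic anhydrases such as CA2. Water follows through aquaporins. The epithelium of the gallbladder can also run in the other direction and concentrate bile, with sodium taken up by exchangers such as SLC9A3.

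The deposited values are normalized counts. Sequencing depth was read off the lowest values of a library, which give the worth of 1 read, and 3 reads were set as the limit of detection (counting error only). In 17 libraries the estimate was 21300000 to 78000000 reads, with 3 reads worth at most 4.26 normalized counts. The other 3 were shallow, namely pBTSC piglet W1 with 1560000 reads, the CD45-/EpCAM+ library S13 with 800000 and the CD146+ library S22 with 454000, where 3 reads were worth 37.7, 77.2 and 157 normalized counts. Groups were compared by limma on log2(normalized count + 1). The 15576 genes reaching 10 normalized counts in 2 libraries or more entered the fit, with all 6 groups together. A gene was called where its Benjamini-Hochberg adjusted p over all genes was under 0.05 and its log2 fold change was larger than 1 in size. SE is the standard error of a log2 fold change.

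The sorted liver groups were not clean by their RNA. The summed normalized counts of 7 hepatocyte markers lay between 865454 and 2408130 in all 15 liver libraries, against 26990 to 67493 in pBTSCs. Summed leukocyte markers were 1357 to 3084 in the CD45+ libraries and 6004 to 18193 in the CD45-/EpCAM- libraries. Among them S100A8 stood at 60.8 to 1054 and 3069 to 16666, while the CD45 gene PTPRC overlapped at 424 to 2687 and 1317 to 2850. The endothelial markers of the CD31+ and CD146+ libraries overlapped those of the other sorts. In these bulk libraries, fewer cells of a type and less RNA per cell cannot be told apart. Of 8 cholangiocyte markers, 7 had a row, and their sum was 19996 to 65321 in pBTSCs, 12892 to 25378 in the liver libraries other than CD45-/EpCAM- and 7611 to 12081 in CD45-/EpCAM-. EPCAM itself stood at 884 to 2075 in pBTSCs and at 1205 to 1779 in CD45-/EpCAM+ liver cells. The summed mucous gland markers were 6059 to 25199 in pBTSCs against 0 to 236 in liver, and the summed mesenchymal markers 204499 to 632668 against 23443 to 95525. Nearly all of the mucous gland sum in pBTSCs was MUC5AC and MUC5B. TFF1 reached at most 2.63 normalized counts in pBTSCs and 15.1 in liver, and TFF2 at most 7.24 and 6.08.

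All 9 genes passed the minimum for testing. SLC9A3 was far higher in pBTSCs than in every liver library, SCTR and CFTR were lower in pBTSCs than in every liver library outside CD45-/EpCAM-, and ANO1 in liver was split by storage number. How many of all genes tested separate pBTSCs from liver in these ways was not counted, so the separations are not shown to be particular to these genes. In pBTSCs against CD45-/EpCAM+ liver cells, limma called 4 of the 9 genes, SLC9A3 and AQP5 higher and SCTR and CFTR lower, where 25.1% of all genes tested were called, 14.8% higher and 10.3% lower. Against CD45-/EpCAM- cells it called 4 of 9 beside 36.6% of all genes, against CD45+ cells 4 of 9 beside 20.6%, and against the mean of CD31+ and CD146+ cells 5 of 9 beside 21.4%. These comparisons share the 5 pBTSC libraries. AQP5 is counted among the called genes in each of them, but it was tested because of its pBTSC values alone, which fixed its direction, and without it the counts are 3, 3, 3 and 4. The median log2 fold change of the 9 genes against CD45-/EpCAM+ cells was -0.36, beside 0.08 over all genes tested.

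**Figure D1:**
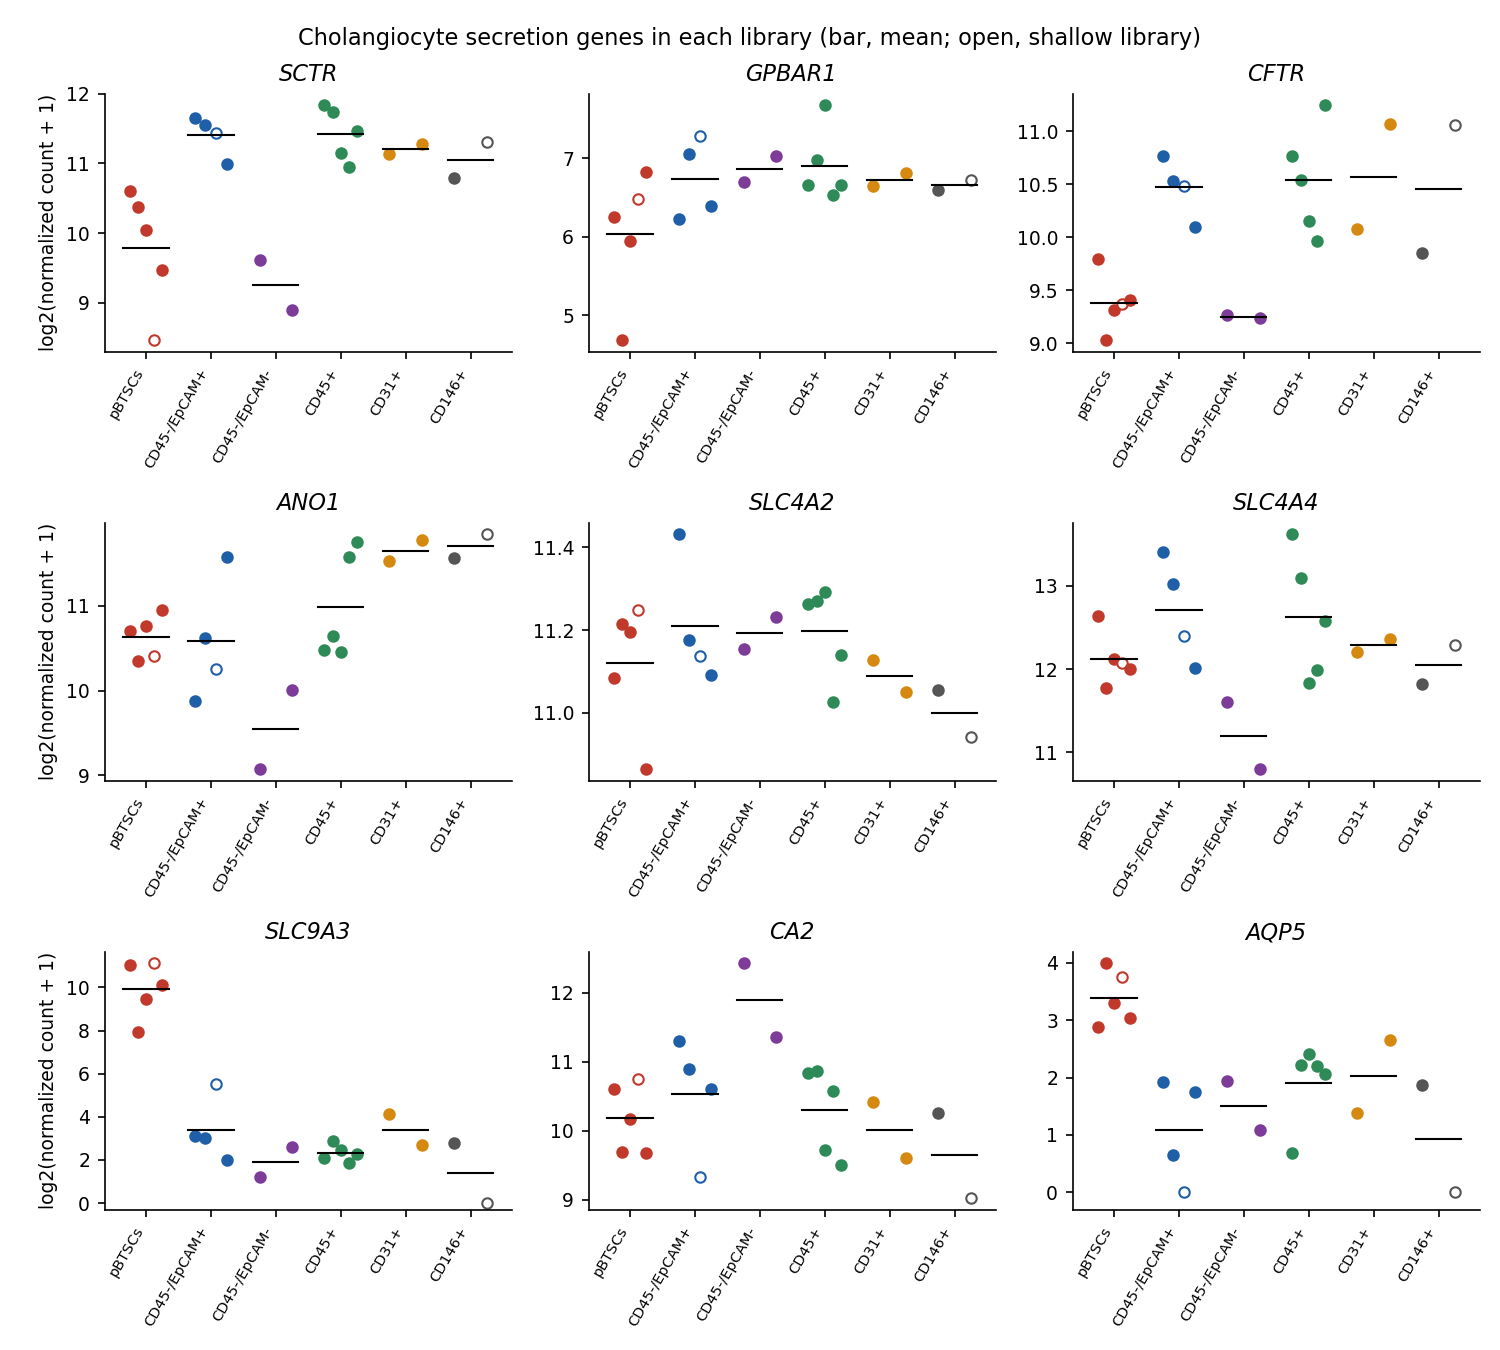
Level of each gene in each library as log2(normalized count + 1), by group, with points in order of storage number within a group, a bar at the mean of the log2 values, open points for the 3 shallow libraries and a vertical axis scaled for each gene. All 5 pBTSC points of SLC9A3 lie above the 15 liver points, while the pBTSC points of SCTR and CFTR lie with CD45-/EpCAM- and under the other 13 liver points.

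SCTR encodes the secretin receptor, a Gs-coupled receptor that in liver is known as a property of bile duct cells. In pBTSCs it stood at 1549, 1321 and 1053 normalized counts in G1, G2 and G3 and at 353 and 708 in W1 and W2. The 4 CD45-/EpCAM+ libraries S4, S9, S13 and S19 had 3226, 2996, 2782 and 2028. Each of these lay above the highest pBTSC library, and the ratio of the medians was 2.74. The log2 fold change was -1.62 (SE 0.34, adjusted p = 0.00105 by limma).

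The other liver sorts had similar SCTR levels, with the exception of CD45-/EpCAM-. The 5 CD45+ libraries had 3653, 3409.8, 2276, 1969.8 and 2822 normalized counts in storage order, the CD31+ libraries 2250.5 and 2476, and the CD146+ libraries 1769.9 and 2528. The log2 fold change of pBTSCs was -1.64 against CD45+ cells (SE 0.32, adjusted p = 6.8e-04 by limma) and -1.34 against CD31+ and CD146+ cells (SE 0.34, adjusted p = 0.00576). The last value fell short of the fold threshold without the 3 shallow libraries (-0.88, adjusted p = 0.0436). The CD45-/EpCAM- libraries S5 and S14 had 781 and 478, inside the pBTSC range, with a log2 fold change of 0.53 for pBTSCs (SE 0.42, adjusted p = 0.305).

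Within liver, SCTR was the 1 gene of the 9 called between CD45-/EpCAM+ and CD45-/EpCAM- cells, a comparison in which 2.8% of all genes were called. It was higher in CD45-/EpCAM+ cells by 2.15 on the log2 scale (SE 0.43, adjusted p = 0.0227 by limma). The call was lost without S19 (2.29, adjusted p = 0.0524) and within S3 to S14 (2.29, adjusted p = 0.0588), where 25 of 15572 and 0 of 15259 genes tested were called. It was also lost without S5, which leaves S14 alone in CD45-/EpCAM- (2.51). CFTR and SLC4A4 missed the threshold between these sorts at 1.22 (adjusted p = 0.0638) and 1.5 (adjusted p = 0.0631), and CA2 differed by -1.36 (adjusted p = 0.146), also not called. With the storage run as a term, CFTR (1.38, adjusted p = 0.0123), SLC4A4 (1.67, adjusted p = 0.0121) and CA2 (-1.48, adjusted p = 0.0294) were called beside SCTR. The CD45-/EpCAM- libraries also held summed erythroid marker counts of 192568 and 877925, against 1489 to 44073 in the other liver libraries, and their part in these levels was not tested. Ordered by mean, the groups ran from CD45+ through CD45-/EpCAM+, CD31+, CD146+ and pBTSCs to CD45-/EpCAM-, and of the neighbouring groups, CD146+ and pBTSCs were the pair whose libraries did not overlap.

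Among the piglets, the 3 H2B-GFP libraries had more SCTR than the 2 wild-type libraries, with no overlap, which also held for 37.3% of all genes tested. Of the other 8 genes, GPBAR1 was without overlap in the other direction, at 24.8 to 75.3 against 88.0 and 113. The line was not tested, since it is not in the labels and 1 of the wild-type libraries is shallow, and its SCTR value rests on about 28.0 reads. RNA integrity was higher in W2 than in the H2B-GFP piglets, and its part was not tested. In the order of the 5 piglets above, the summed cholangiocyte markers were 65321, 36807, 52813, 38500 and 19996, which does not place the H2B-GFP piglets apart from the wild-type piglets.

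GPBAR1 encodes TGR5, the bile acid receptor of the cell surface, which cholangiocytes share with macrophages. It was low throughout, with a median of 75.3 normalized counts in pBTSCs, from 24.8 to 113, and of 102 over the 15 liver libraries, from 73.9 to 203. The groups overlapped, and the S22 value of 104 is under 3 reads. GPBAR1 was called in none of the 4 comparisons of pBTSCs with liver (log2 fold changes from -0.86 to -0.65, adjusted p from 0.0749 to 0.211 by limma). It was called lower after quantile normalization against CD45-/EpCAM+, CD45-/EpCAM- and CD45+ cells (-1.01, -1.20 and -1.10, adjusted p from 0.0253 to 0.0488), and against CD45+ cells also among S2 to S14 (-1.47, adjusted p = 0.0413) and without W2 (-1.06, adjusted p = 0.0378). Summed macrophage markers were 3436 to 9086 in pBTSCs and 24894 to 102613 in liver, and their part in the GPBAR1 levels was not tested. The highest GPBAR1 value among the deep libraries, 203 in the CD45+ library S12, came with the second-highest macrophage sum, 98570. Elsewhere S9 had 132 with a sum of 48818 and S14 had 130 with 77376, while S8 had 125 with 26951 and S23 had 100 with 45463.

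CFTR encodes the chloride channel that cyclic AMP opens at the apical membrane. In pBTSCs it stood at 887, 523 and 635 normalized counts in G1, G2 and G3 and at 659.99 and 677 in W1 and W2. The CD45-/EpCAM+ libraries S4, S9, S13 and S19 had 1740.5, 1479, 1427 and 1095. No pBTSC library reached the lowest of them. The CD45-/EpCAM- libraries had 613 and 602, inside the pBTSC range, and the other 9 liver libraries ran from 922 in S17 to 2423 in S23.

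The log2 fold change of CFTR in pBTSCs was -1.09 against CD45-/EpCAM+ cells (SE 0.28, adjusted p = 0.00519 by limma), -1.15 against CD45+ cells (SE 0.26, adjusted p = 0.00261) and -1.13 against CD31+ and CD146+ cells (SE 0.28, adjusted p = 0.00509). Against CD45-/EpCAM- cells it was 0.13 (SE 0.35, adjusted p = 0.774). These differences sit close to the fold threshold. With each library scaled to the same total, which moved the median of all genes from 0.08, 0.07 and 0.14 to 0.39, 0.31 and 0.43, none of the 3 was called (-0.78, -0.90 and -0.84, adjusted p from 0.00988 to 0.0268), and without the shallow libraries the last was not (-0.83, adjusted p = 0.0711). Against CD45-/EpCAM+ cells the fold fell short of it without G2 (-0.999, adjusted p = 0.0149) and without S4 (-0.987, adjusted p = 0.0199), as it did against CD45+ cells without S23 (-0.975, adjusted p = 0.0081) and against CD31+ and CD146+ cells without S21 (-0.88, adjusted p = 0.0455) or S22 (-0.83, adjusted p = 0.0468). After quantile normalization it also fell short against CD45-/EpCAM+ cells (-0.99, adjusted p = 0.00852). Among S15 to S23 CFTR was not called against CD45+ cells (-1.22, adjusted p = 0.206) or against CD31+ and CD146+ cells (-1.13, adjusted p = 0.149).

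Whether CFTR and SCTR were also low beside other cholangiocyte genes depended on which markers were summed. Per 100 summed counts of the 7 cholangiocyte markers, CFTR stood at 1.20 to 3.38 in pBTSCs and at 4.36 to 11.1 in liver, and SCTR at 0.917 to 3.59 and 6.28 to 21.6, with no overlap in either case. SPP1, which encodes osteopontin and is made by cholangiocytes and also by macrophages, made up 68.1% to 83.4% of that sum in pBTSCs and 14.2% to 28.1% in liver. With SPP1 left out of the sum, a choice made after the values were seen, CFTR stood at 6.44 to 10.6 in pBTSCs and 5.21 to 14 in liver, and SCTR at 4.11 to 16.3 and 7.35 to 27.4, so that both overlapped. The largest of the 6 markers left was CDH1, with a mean of 4881 normalized counts in pBTSCs and 11574 in CD45-/EpCAM+ cells. Ratios to single markers were not taken.

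**Figure D2:**
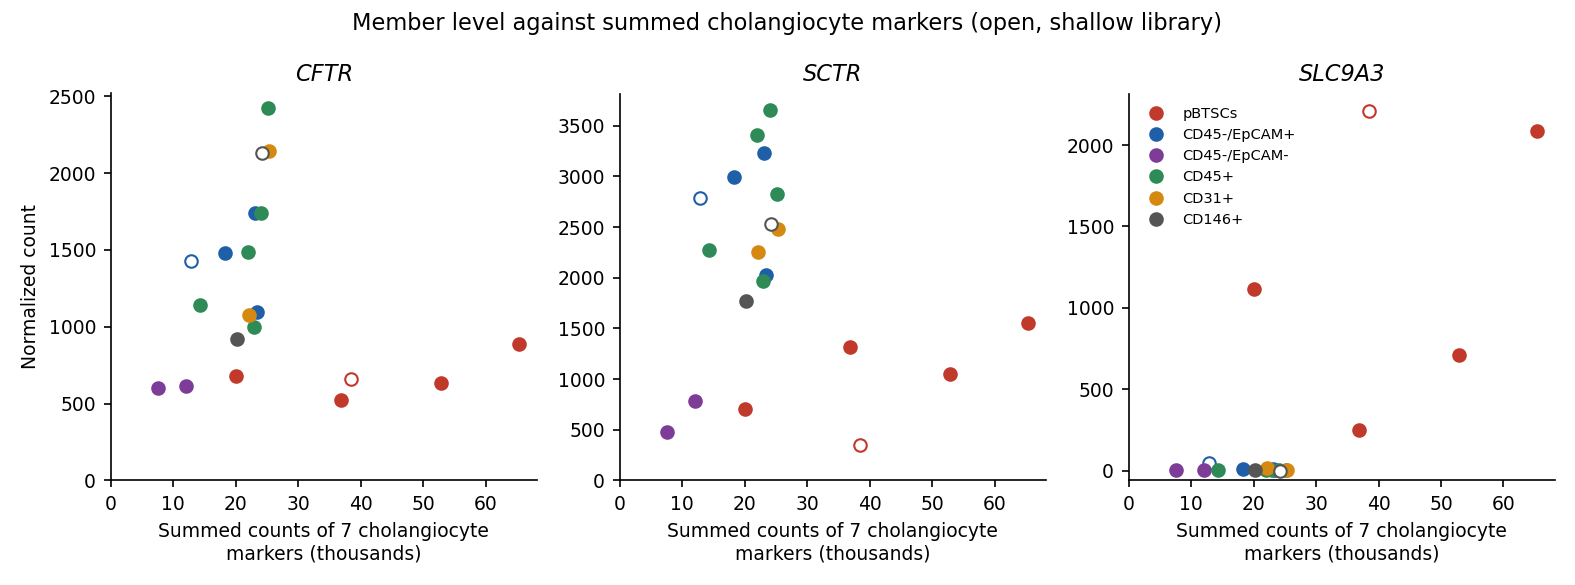
Normalized counts of CFTR, SCTR and SLC9A3 in each library against the summed normalized counts of 7 cholangiocyte markers (axis in units of 1000), coloured by group, with open points for shallow libraries. The pBTSC points of CFTR and SCTR lie low at marker sums of 19996 to 65321, and those of SLC9A3 lie above every liver point.

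ANO1 encodes TMEM16A, a chloride channel opened by calcium. In pBTSCs it was even across piglets, at 1660.4, 1303 and 1741 normalized counts in G1, G2 and G3 and at 1361 and 1984 in W1 and W2. In liver it split by storage number. The 8 libraries from S3 to S14 had 539 to 1595 and the 7 libraries from S16 to S23 had 2965 to 3679, with a ratio of the medians of 2.33. ANO1 was the 1 gene of the 9 whose 2 blocks of liver libraries did not overlap, which also held for 15% of all genes tested. The CD45+ and CD45-/EpCAM+ groups each held both levels, the first with 1403 to 1595 in S3, S8 and S12 and 3049.6 and 3456 in S18 and S23, and the second with 939, 1576 and 1217 in S4, S9 and S13 and 3045 in S19.

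The comparisons of ANO1 moved with these blocks. The log2 fold change of pBTSCs was 0.06 against CD45-/EpCAM+ cells (SE 0.33, adjusted p = 0.913 by limma). Among S2 to S14 it was 0.35 (adjusted p = 0.315). Among S15 to S23, where S19 is the only CD45-/EpCAM+ library, it was -0.89, and the difference between these values was not tested. ANO1 was called lower in pBTSCs than in CD31+ and CD146+ cells, whose libraries all lie at S16 to S22 (-1.04, SE 0.33, adjusted p = 0.0228), and higher than in CD45-/EpCAM- cells, which lie at S5 and S14 (1.09, SE 0.41, adjusted p = 0.0345). With the 2 storage blocks as a term in the fit, neither was called (-0.58, adjusted p = 0.125, and 0.78, adjusted p = 0.0525). The second call was also lost without S5 (0.63, adjusted p = 0.403) and without G1, G3 or W2 (1.01 to 1.08, adjusted p from 0.0526 to 0.0621), and the first without G2, W1, S21 or S22 (-0.99 to -0.97, adjusted p from 0.0474 to 0.0844). Summed erythroid markers moved with the same blocks, at 12661 to 877925 in S3 to S14 and 1489 to 2601 in S16 to S23, and their part was not tested.

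SLC4A2 encodes the anion exchanger AE2, which passes bicarbonate into bile in exchange for chloride. It was the most even of the 9 genes, with 1863 to 2431 normalized counts in pBTSCs and 1966 to 2761 in the 15 liver libraries. All neighbouring groups in the order of their means overlapped. No comparison called it, and the log2 fold changes of pBTSCs ran from -0.09 to 0.08, with standard errors from 0.0986 to 0.130 and adjusted p from 0.537 to 0.675 by limma.

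SLC4A4 encodes the sodium bicarbonate cotransporter NBCe1, which loads bicarbonate into the cell, and hepatocytes carry such cotransport as well. In pBTSCs it stood at 6357, 3502 and 4466 normalized counts in G1, G2 and G3 and at 4293 and 4089.8 in W1 and W2. The 2 CD45-/EpCAM- libraries were lower, at 3107 and 1787, and did not overlap pBTSCs (log2 fold change 0.92, SE 0.43, adjusted p = 0.0831, not called). This difference was called with the storage blocks as a term (1.11, adjusted p = 0.0351) and with each library scaled to the same total (1.40, adjusted p = 0.00688). The other 13 liver libraries ran from 3604 to 12555 and overlapped pBTSCs, and the 4 highest of them were the CD45+ and CD45-/EpCAM+ libraries S3, S4, S8 and S9, between 8269 and 12555. Against CD45-/EpCAM+, CD45+, and CD31+ and CD146+ cells SLC4A4 differed by -0.59, -0.50 and -0.05 (adjusted p = 0.189, 0.253 and 0.933).

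SLC9A3 encodes the sodium/hydrogen exchanger NHE3, known from the absorptive surface of gallbladder, intestine and kidney tubule. In pBTSCs it stood at 2089, 247 and 709 normalized counts in G1, G2 and G3 and at 2207 and 1113 in W1 and W2. In the 4 CD45-/EpCAM+ libraries it stood at 7.54, 7.08, 45.6 and 2.95, where the third value, from the shallow S13, is about 1.77 reads. The CD45-/EpCAM- libraries had 1.28 and 5.0, the CD45+ libraries 2.58 to 6.46, the CD31+ libraries 16.5 and 5.47 and the CD146+ libraries 5.99 and 0. The lowest pBTSC library thus lay above the highest liver library, and the median of the 5 pBTSC libraries was 223-fold that of the 15 liver libraries, or 182-fold over the deep libraries.

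By limma, SLC9A3 was higher in pBTSCs by 6.53 on the log2 scale against CD45-/EpCAM+ cells (SE 0.77, adjusted p = 4.6e-06), by 8.05 against CD45-/EpCAM- cells (SE 0.96, adjusted p = 5.3e-06), by 7.62 against CD45+ cells (SE 0.73, adjusted p = 4.4e-07) and by 7.53 against CD31+ and CD146+ cells (SE 0.77, adjusted p = 1.0e-06). The size of these folds rests on liver values of a few reads. It moved with single libraries, to 7.24 against CD45-/EpCAM+ cells without S13, to 7.35 without S5 or 8.75 without S14 against CD45-/EpCAM- cells, and to 8.23 without S17 or 6.83 without S22 against CD31+ and CD146+ cells, with an adjusted p of at most 6.3e-04. Among S2 to S14 the log2 fold change against CD45-/EpCAM+ cells was 5.60 (adjusted p = 9.6e-04). Among S15 to S23 it was 8.63, with S19 as the only CD45-/EpCAM+ library.

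The piglets differed widely in SLC9A3. From lowest to highest they ran from G2 through G3, W2 and G1 to W1, so that the lines were mixed. The summed mucous gland markers were 6059, 14605, 7076, 25199 and 18881 in that order, and the cholangiocyte markers 36807, 52813, 19996, 65321 and 38500. RNA integrity was lowest in G2 and G3, and its part in the SLC9A3 levels was not tested. Per 100 cholangiocyte marker counts, SLC9A3 still stood at 0.671 to 5.73 in pBTSCs and at 0 to 0.354 in liver, and with SPP1 left out of the sum at 3.04 to 25.7 and 0 to 0.449.

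CA2 encodes a cytosolic carbonic anhydrase found in duct cells and also in red blood cells. In pBTSCs it stood at 1555, 824 and 1150.3 normalized counts in G1, G2 and G3 and at 1724 and 818 in W1 and W2. The CD45-/EpCAM- libraries were the highest of the series, at 5508 in S5 and 2612 in S14. Every other liver library lay between 520.1 and 2519, overlapping pBTSCs. CA2 was called lower in pBTSCs than in CD45-/EpCAM- cells (-1.71, SE 0.52, adjusted p = 0.0119 by limma), a call lost without S5 (-1.17, adjusted p = 0.216). S5 also had the highest erythroid sum, 877925, and S14 the next, 192568, while pBTSCs had 29314 to 128809 and the part of red cells was not tested. Against the other sorts CA2 differed by -0.36, -0.12 and 0.35 (adjusted p from 0.534 to 0.852).

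AQP5 encodes a water channel of gland epithelium. It was close to the limit of detection, at 6.35, 15, 8.91, 12.6 and 7.19 normalized counts in G1, G2, G3, W1 and W2 and at 0 to 5.34 in liver, where 6 of 15 libraries were at or under 3 reads. The value of W1, 12.6, is 1 read. AQP5 was called higher in all 4 comparisons of pBTSCs with liver (log2 fold changes from 1.48 to 2.32, adjusted p from 0.00386 to 0.0413 by limma). It reached the minimum for testing through G2 and W1 alone and so had to be high in pBTSCs to be tested. The call was lost against CD45-/EpCAM- cells without G3, S5 or S14 (1.45 to 2.32, adjusted p from 0.0519 to 0.227), against CD45+ cells without G3, W2, S3, S8, S18 or S23 (1.18 to 1.57, adjusted p from 0.052 to 0.119) and against CD31+ and CD146+ cells without S16 or S22 (1.60 and 1.45, adjusted p = 0.084 and 0.101). With a pseudocount of 10 (0.60 to 0.80) and after quantile normalization (0.36 to 1.08) it was called in none of the 4 comparisons. Without the shallow libraries it could not be tested. The 4 deep pBTSC libraries, G2 among them, had 6.35 or more, and the highest deep liver value was 5.34, about 7.02 reads in S21. Since AQP5 had to be high in pBTSCs to be examined, this order is no separate support.

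**Figure D3:**
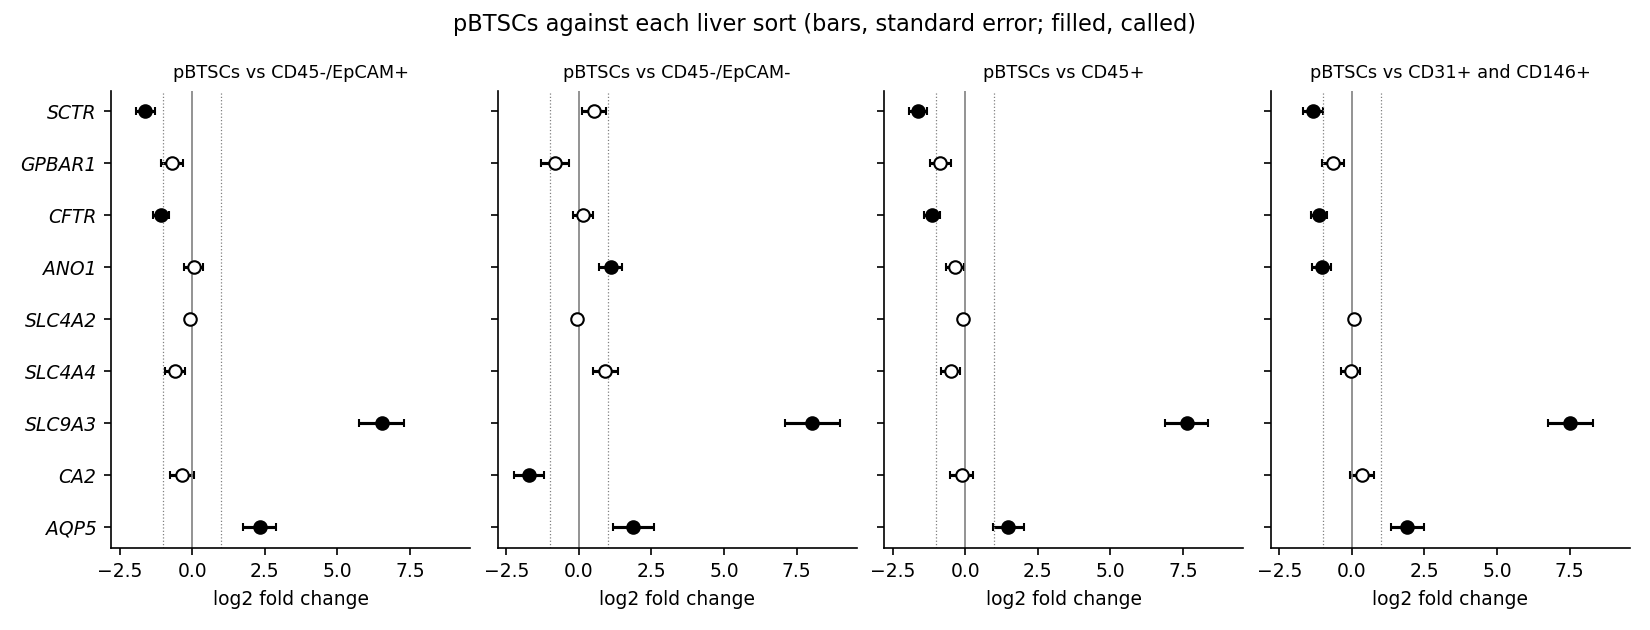
Log2 fold change of the 9 genes in pBTSCs against each liver sort, with bars for the standard error, filled points for called genes, open points for the rest and dotted lines at the fold threshold. SLC9A3 lies at 6.53 to 8.05 in the 4 panels, and SCTR and CFTR lie left of 0 against every sort except CD45-/EpCAM-.

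Within liver, with the shallow libraries included, storage number grouped the levels of 7 of the 9 genes more than the sorted antigen did. Leaving out CD45-/EpCAM-, the 13 liver libraries fall into 5 runs of neighbouring storage numbers and 4 sorts. The runs held 95.5% of the variance of log2 CFTR and the sorts 0.932%. For ANO1 the shares were 96.3% and 43.3%, for SLC4A4 93.0% and 17.3%, for CA2 92.5% and 19.3%, for GPBAR1 87.7% and 6.56% and for SCTR 87.3% and 21.2%. The median over all genes tested was 71.9% by run and 24.3% by sort, so a large share by run was not particular to these genes. SLC4A2 was close to that median, at 73.2% and 37.8%. The shares of SLC9A3 and AQP5, which sit at a few reads in liver, were 34.7% and 6.46% by run and larger by sort, at 36.4% and 27.9%. Without the shallow S13 and S22, 11 libraries remain and AQP5 turned, to 41.1% by run and 13.02% by sort. SLC9A3 did not, at 6.69% and 41.6%. The median over all genes tested was then 87.9% by run. Against it SCTR and GPBAR1 were close, at 90.8% and 90.7%, and SLC4A2 was lower, at 81.98%. CFTR, SLC4A4, ANO1 and CA2 stayed above it, at 97.5%, 97.1%, 95.8% and 94.4%. The share of CFTR by sort rose to 19.6%. Runs and sorts are not balanced, and what a run shares (donor, day or preparation) is not in the labels.

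The runs can be read directly in CFTR. Its 2 libraries of S3 to S5 had 1740.5 and 1743 normalized counts although 1 is CD45-/EpCAM+ and 1 is CD45+, the 2 of S8 and S9 had 1479 and 1488, the 2 of S12 to S14 had 1139.8 and 1427, the 4 of S16 to S19 had 922 to 1095 and the 3 of S21 to S23 had 2134 to 2423. SCTR had 3226 to 3653, 2996 to 3409.8, 2276 to 2782, 1769.9 to 2250.5 and 2476 to 2822 in the same runs. With the run as a term in the fit, the log2 fold changes of pBTSCs against CD45-/EpCAM+ cells were -1.20 for CFTR (SE 0.17, adjusted p = 7.5e-05 by limma) and -1.57 for SCTR (SE 0.20, adjusted p = 2.7e-05). Among S2 to S14 they were -1.21 for each gene (adjusted p = 0.0022 and 0.0036). Among S15 to S23 they were -0.71 for CFTR and -2.02 for SCTR, from W2 and the shallow W1 against S19 alone.

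**Figure D4:**
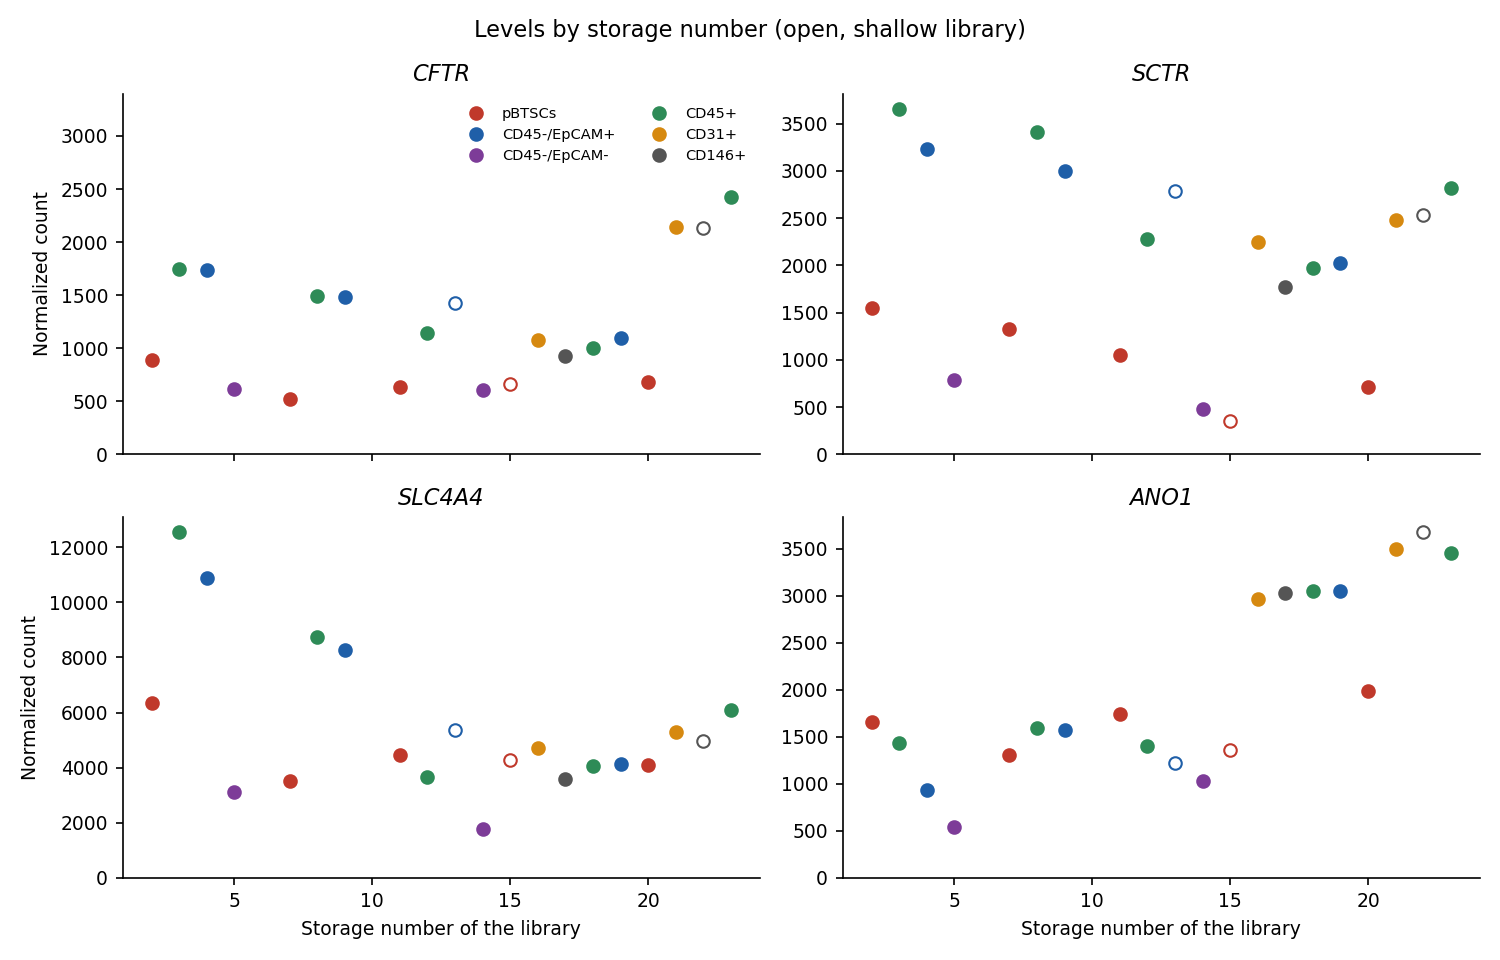
Normalized counts of CFTR, SCTR, SLC4A4 and ANO1 against the storage number of each library, coloured by group, with open points for shallow libraries. Apart from the CD45-/EpCAM- libraries S5 and S14, neighbouring liver libraries of different sorts often lie close together, CFTR is highest at S21 to S23, and ANO1 in liver lies at 539 to 1595 up to S14 and at 2965 to 3679 from S16 on.

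The other genes of these pathways were read from lists by function. Of 50 tested, 27 were called in pBTSCs against CD45-/EpCAM+ cells, 17 higher and 10 lower, with a median log2 fold change of 0.60 beside 0.08 over all genes tested, of which 25.1% were called, 14.8% higher and 10.3% lower. SLC26A3 and AQP4, both counted as higher, were tested through pBTSC libraries alone, which fixed their direction. Without the shallow S13, an alternative chosen after the values were seen, 22 of 50 were called, 12 higher and 10 lower, with 7 of the 27 calls lost and 2 gained. In that fit 3696 of all 15536 genes tested were called. SLC26A3 and AQP4 were still among the 12. With each library scaled to the same total, the median over all genes in this comparison moved from 0.08 to 0.39.

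Receptors and signalling genes upstream of the channels were called in 7 of 15 cases, 6 higher and 1 lower. VIPR1, the receptor for vasoactive intestinal peptide and a relative of SCTR, fell by 2.74 on the log2 scale (SE 0.26, adjusted p = 3.6e-07 by limma), from 404 to 827 normalized counts in CD45-/EpCAM+ cells to 69.6 to 116 in pBTSCs. P2RY2, a receptor for extracellular ATP, was called higher, at 126 to 201 normalized counts against 65.9 to 102 in the deep CD45-/EpCAM+ libraries and 0 in S13, which cannot show values under 77.2 (log2 fold change 2.61, adjusted p = 0.0397, and 1.02, adjusted p = 0.0497, without S13). CHRM3, the M3 muscarinic receptor, stood at 61.2 to 104 against 17.5 to 28.7 in the deep libraries and 0 in S13, and its call (2.89, adjusted p = 0.0263) was lost without S13 (1.78, adjusted p = 0.107). ADCY8, an adenylyl cyclase, stood at 89.3 to 189 against 17.4 to 96.7 in the deep libraries and 0 in S13, with overlap, and its call (3.09, adjusted p = 0.0452) was also lost without S13 (1.73, adjusted p = 0.187). Of the IP3 receptors, which release the calcium that opens ANO1, ITPR1 and ITPR3 were called higher, by 1.18 and 1.73 (adjusted p = 0.00532 and 7.0e-04), and ITPR2 stayed under the fold threshold at 0.76 (adjusted p = 0.016).

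Of 16 carriers and channels, 7 were called, 5 higher and 2 lower. SLC12A2, the NKCC1 cotransporter that loads chloride, was even among the piglets at 1221 to 1444 normalized counts against 290 to 648 in CD45-/EpCAM+ cells (log2 fold change 1.74, SE 0.28, adjusted p = 1.2e-04). SLC26A3, a chloride/bicarbonate exchanger of the colon surface, stood at 582, 3.61 and 139 in G1, G2 and G3 and at 1406 and 683 in W1 and W2, while 13 of the 15 liver libraries were at or under 3 reads. SLC9A3R1, the scaffold NHERF1 that binds both CFTR and NHE3, was lower (-1.67, SE 0.26, adjusted p = 8.6e-05), with 668 to 968 in pBTSCs against 1515 to 3488. SLC4A5, a further bicarbonate cotransporter, was called higher by 1.75 (adjusted p = 0.0149) at 5.75 to 12.6 normalized counts, near the limit of detection, a call lost without S13 (1.27, adjusted p = 0.0529), and the CD45-/EpCAM- libraries had more of it, 11.7 and 22.9.

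Of 8 carbonic anhydrases beside CA2, 4 were called, 1 higher and 3 lower, and of 6 aquaporins beside AQP5, 5 were called, 3 higher and 2 lower. CA4, a membrane-bound carbonic anhydrase, was higher by 5.04 (SE 1.07, adjusted p = 0.00123 by limma) or 3.39 without S13 (adjusted p = 3.0e-04), at 1465, 291 and 772 normalized counts in G1, G2 and G3 and at 2839.8 and 1248 in W1 and W2, against 0 to 123 in CD45-/EpCAM+ cells. The piglets stood in the same order for CA4 as for SLC9A3, and G2 was also the lowest for SLC26A3. CA14, CA3 and the mitochondrial CA5A were lower, with log2 fold changes of -5.88, -5.68 and -5.14, as were AQP9 and AQP8, water channels known from hepatocytes, with -6.21 and -2.60. Summed hepatocyte markers were lower in every pBTSC library by the values given above, and their part in these differences was not tested. AQP3 and AQP1 were called higher, AQP3 at 62.9 to 880 normalized counts against 0 to 124 (log2 fold change 3.05, adjusted p = 0.0271). The AQP3 call was lost without S13 (1.55, adjusted p = 0.0823). AQP4 stood at 8.35 to 215 in pBTSCs and at 0 to 2.66 in CD45-/EpCAM+ cells, and its direction was fixed by the filter.

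Of the genes near GGT1 in function, GGT5 was higher by 1.60 (adjusted p = 3.4e-05) and ANPEP, an aminopeptidase, was lower, with a log2 fold change of -2.10 (adjusted p = 1.6e-06). Of the bile acid sensors beside GPBAR1, the nuclear receptor NR1H4 (FXR) was lower, at 26.0 to 101 normalized counts against 964 to 1686 in CD45-/EpCAM+ cells (log2 fold change -4.73, SE 0.29, adjusted p = 5.2e-09). S1PR2, a receptor for sphingosine 1-phosphate and conjugated bile acids, was higher, at 277 to 565 against 95.2 to 154 (1.69, SE 0.28, adjusted p = 1.7e-04).

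**Figure D5:**
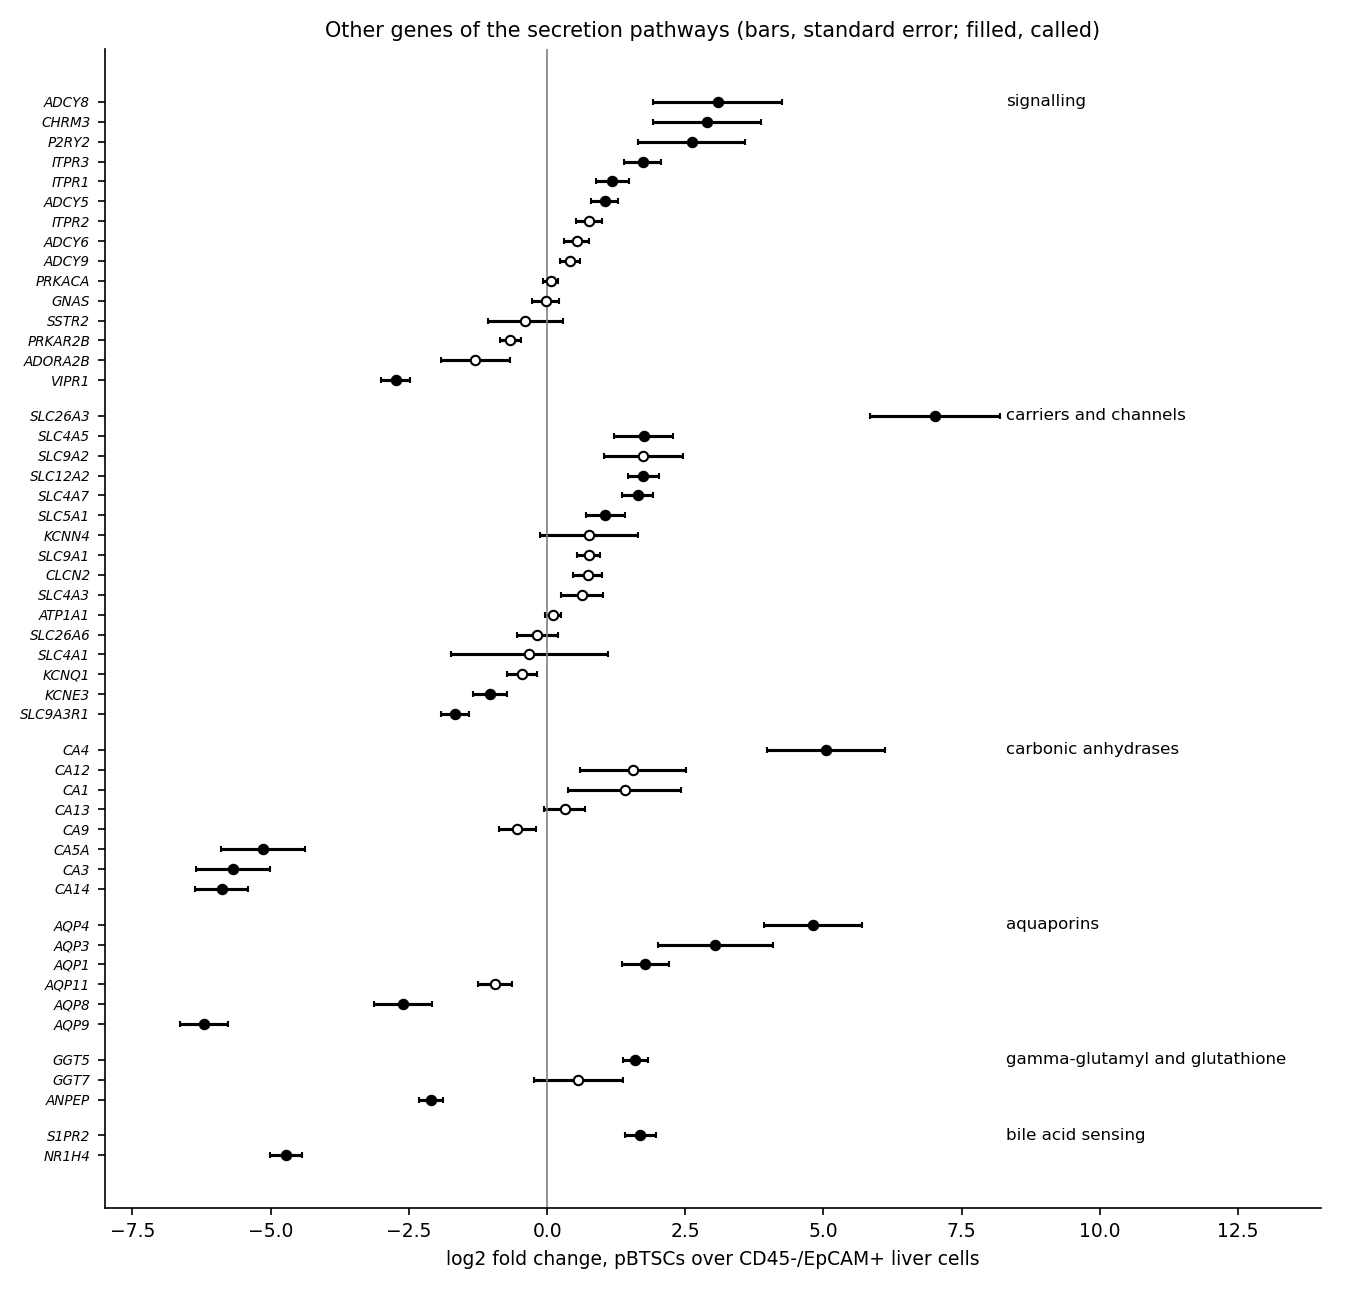
Log2 fold change of 50 other genes of the secretion pathways in pBTSCs over CD45-/EpCAM+ liver cells, grouped by list and sorted within it, with bars for the standard error, filled points for called genes and open points for the rest. Of them 17 are called higher and 10 lower, or 12 and 10 without S13, with SLC26A3, CA4 and AQP4 at the high end and AQP9, CA14, CA3, CA5A and NR1H4 at the low end.

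The named gene whose pattern was most like each of the 9 was sought by Pearson correlation of log2(normalized count + 1) over the 17 deep libraries, which share sorts and storage runs. It was MYO5C for SCTR (r = 0.939), LLGL2 for CFTR (r = 0.898), IL33 for ANO1 (r = 0.964), SLC1A1 for SLC4A4 (r = 0.931), PIR for GPBAR1 (r = 0.913), SERINC2 for CA2 (r = 0.878), GBA2 for SLC4A2 (r = 0.841), SCG2 for SLC9A3 (r = 0.980) and CACNG4 for AQP5 (r = 0.848). Over the 13 deep liver libraries, which are among the 17, r was 0.824 to 0.979 for the same pairs of 7 genes, 0.646 for AQP5 and 0.368 for SLC9A3. In the same 13 libraries SCTR went with SLC4A4 (r = 0.877), CFTR with SCTR (r = 0.848) and ANO1 against CA2 (r = -0.811).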

How the data were processed

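Poly(A) RNA of 5 pBTSC preparations and 15 sorted pig liver preparations was sequenced with a stranded kit. Normalized counts of 25764 genes, used here as a signal without negative values, are what the authors deposited. The submitters' processing notes name STAR, Salmon and DESeq2 without versions, and the genome build, annotation and use of strand in counting are not given in the sources used here. No coordinates or sequences are therefore printed. Dividing low values by the worth of 1 read gave whole numbers, within 0.05, for 60.3% to 84.7% of values, which is too few for a test on counts.

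Groups were taken from the deposited labels, and the line, age and RNA integrity of the piglets from the study's supplement. The log2(normalized count + 1) values went into limma 3.58.1 under R 4.3.3, using lmFit, contrasts.fit and eBayes with trend and Benjamini-Hochberg adjustment, all groups together and no covariate, after a run on simulated data. Summaries and figures used Python 3.11.15, numpy 2.4.6, pandas 2.3.3, scipy 1.17.1 and matplotlib 3.10.9. The genes, lists and storage blocks were chosen with earlier results of these data known. Named beside the 9 genes are up to 4 genes of each pathway list, those called against CD45-/EpCAM+ cells with the largest change, the most alike gene of each, and marker genes. The IP3 receptors and AQP1 were named, and the marker sum without SPP1 and the pathway fit without S13 were added, after their values were seen. Before averaging, pairs of deep libraries in a group differed by 3.55 to 10.5 times counting noise, and the closest pair, which holds the shallow W1, by 1.84 times. The alternatives were other pseudocounts, filters, scalings, weights, storage terms and fits, and each library left out in turn.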

Additional observations from a re-analysis of the deposited data

Results flagged for a closer look

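SLC9A3 stood at 45.62 normalized counts in the shallow CD45-/EpCAM+ library S13, far from the 7.54 of the nearest of the other 3 libraries of that group, with a gap of 0.892 of the whole range. The value is under 3 reads of that library, which are worth 77.2 normalized counts. It was the 1 value marked among 27 combinations of 9 genes and the 3 groups of 4 or 5 libraries, where chance marks about 1 in 20.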

How the results depend on the processing

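The counts of called genes among the 9 moved as follows. Against CD45-/EpCAM+ cells 4 genes were called, and 2 to 4 with 1 library left out. No count is given within S15 to S23, where S19 is the only CD45-/EpCAM+ library. Against CD45-/EpCAM- cells 4 were called. No range with 1 library left out is given there, since without S5 or S14 that group holds 1 library. Against CD45+ cells 4 were called, 2 within S15 to S23 and 2 to 4 with 1 library left out. Over all genes tested in this comparison, 3202 of 15576 were called, 1860 of 14949 within S15 to S23 and 2900 of 15561 without S12. Against CD31+ and CD146+ cells 5 were called, 3 with the same total in each library, 3 after quantile normalization, 1 without the libraries under 2000000 reads, 2 within S15 to S23 and 2 to 5 with 1 library left out. Between CD45-/EpCAM+ and CD45-/EpCAM- cells 1 was called, 3 with the same total, 0 with array weights, 0 with only the groups compared, 0 within S2 to S14, 4 with the storage run as a term, 2 with the storage block as a term and 0 to 2 with 1 library left out. Over all genes tested between these sorts 436 were called, and 39, 0 and 0 with array weights, with only the groups compared and within S2 to S14. With the same total, the storage run and the storage block they were 718, 531 and 487. Against CD31+ and CD146+ cells 3326 of all 15576 genes were called. There 4006 were called with the same total, 3341 after quantile normalization and 2280 of 14949 within S15 to S23. The moves in the counts of the 9 genes are not read apart from these numbers. SLC9A3 was called under every alternative run in the 4 comparisons of pBTSCs with liver, and SCTR under all 35 against CD45-/EpCAM+ and against CD45+ cells. Fits lacking S13 or S16, and the stricter filter, tested SLC9A3 through its pBTSC values, so those SLC9A3 calls are no separate support. Of 1519 fold changes recomputed for single genes, 64 lost and 19 gained a call and 0 called ones turned direction, while 38 of 921 uncalled ones changed sign. The cause of these changes was not tested. The deposited table holds no read counts, and the 3 shallow libraries cannot show genes under 37.7 to 157 normalized counts. No paired analysis was possible because the labels carry no replicate numbers and no donor for the liver libraries. The run of neighbouring storage numbers was fitted as a term in its place.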
